A study of Homo sapiens with 9 samples.

Results

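The lengths of poly(T) runs were counted in 2 of the 9 libraries of the series, 1 from each of a pair of human cell lines. Both libraries were chosen by sample, because they are the ones deposited as poly(T) lists: HEK293T, T12 primer, biological replicate 2, and A549, T12 primer, biological replicate 1. HEK293T is a transformed embryonic kidney line, grown here in high-glucose DMEM with serum. A549 is a lung carcinoma line with epithelial character, grown in F-12K with serum. Both are labelled wild type, and total RNA from each was taken through CLT-seq, a protocol that reverse-transcribes from an adaptor-carrying oligo(dT) primer and ligates a second adaptor to the cDNA. Each cell line had 1 such list, so no difference between them has a replicate check, no test was made, and every value below describes these libraries. Intervals are at the 95% level and cover counting error alone, with each read taken as independent. The protocol names no molecular identifiers, so PCR copies of the same molecule count as separate reads and the intervals may be too narrow.

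The poly(A) tail is the run of adenosines that nuclear poly(A) polymerase adds to most mRNAs and many long noncoding RNAs after cleavage of the 3′ end. Cytoplasmic poly(A)-binding protein coats the tail, and the PAN2-PAN3 and CCR4-NOT deadenylases shorten it, often as the first step of mRNA decay. An oligo(dT) primer anneals to the tail, and the cDNA then opens with a run of T that holds the primer's own T and any further tail copied between the primer and the body of the RNA. An unanchored primer can sit anywhere along a tail, so the run it yields need not span the whole tail. Whether the run length measures tail length was not tested.

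The T12 primer is shown because an intact primer adds its own T run to the cDNA. The capitals mark its 12 terminal T, and the lower case is adaptor sequence.
T12: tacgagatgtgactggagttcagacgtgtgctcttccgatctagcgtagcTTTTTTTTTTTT

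Each list was a single column of 134 counts, and no line rose over the line before it in either list. Line k was therefore read as the number of reads whose T run has at least a given length, and the drop from one line to the next as the number of runs that end there. Which run length belongs to which line is not given in the sources used here. In both lists more runs ended at line 3 than at any other line. If line 3 stands for the 12 T of the primer, line 1 stands for runs of at least 10 T and the second-last line, the last one above 0, for runs of at least 142 T. That conversion is an inference, and the values are given by line.

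The lists differed first in the number of reads at line 1. These are reads with a T run, so their ratio need not be that of all reads sequenced. Line 1 held 673778 reads in HEK293T and 6446939 reads in A549, 9.57 times as many. The second-last line held 5 reads in HEK293T and 3 in A549. The last line held 0 reads in both, which allows a share of up to 0.000445% of line-1 reads in HEK293T and 4.65e-05% in A549. Reads ran out at the same line in both lists. The 5 and 3 reads of the second-last line are too few to judge whether runs piled up at the longest length.

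Short runs made up nearly all of both lists, and by whole lines their percentiles coincided. The read at the 25th percentile ended at line 3 in both libraries, the median read at line 4, the read at the 75th percentile at line 6, the read at the 90th percentile at line 10 and the read at the 95th percentile at line 13. Higher percentiles fell on different lines. The read at the 99th percentile ended at line 26 in HEK293T and line 22 in A549. At percentile 99.5 the last lines were 36 and 26, and at percentile 99.9 they were 79 and 35.

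**Figure D1:**
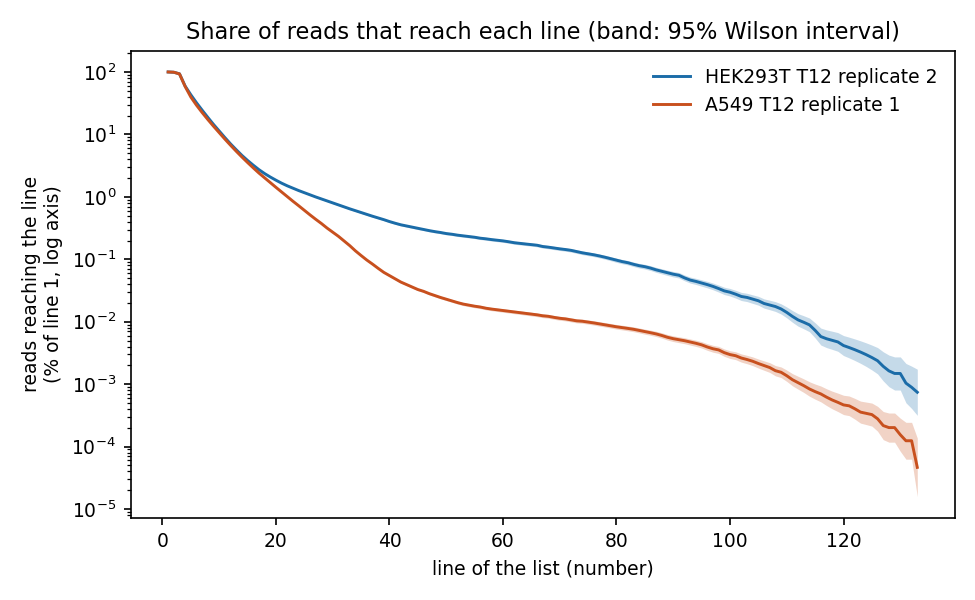
Reads that reach each line as a percent of line-1 reads (y axis, log scale) against the line number (x axis) for HEK293T T12 replicate 2 and A549 T12 replicate 1, with 95% Wilson intervals as bands. The shares differ by at most 3.43 percentage points, at line 5, and the curves move far apart on the log scale past line 20, with HEK293T at 0.378% and A549 at 0.0487% at line 41.

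Lines 1 to 3 would be runs no longer than the primer's own T. Of line-1 reads, 40.6% in HEK293T and 41.6% in A549 ended in these lines. Few runs ended at line 1 (1.04% of reads in HEK293T, 0.876% in A549) or at line 2 (5.48% of runs that reached it in HEK293T, 6.15% in A549). By the inferred conversion these runs would hold 10 and 11 T, fewer than the primer. The origin of such short runs was not tested. At line 3, 36.5% of the remaining runs ended in HEK293T (95% Wilson interval 36.4 to 36.6) and 37.2% in A549 (37.19 to 37.27). The abrupt drop at line 3 was thus common to both libraries, and only reads past it can hold T beyond the primer's own if line 3 stands for 12 T. By that reading 59.4% of HEK293T reads and 58.4% of A549 reads carried at least 1 further T.

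Among the runs that passed line 3, the clearest early difference was at line 4. There 27.4% of runs ended in HEK293T (27.3 to 27.5) and 32.1% in A549 (32.0 to 32.1), a gap much wider than these intervals. The widest gap in share of any line came right after this step. At line 4, 59.4% of HEK293T reads and 58.4% of A549 reads were left. At line 5, 43.1% of HEK293T reads and 39.7% of A549 reads were left, 3.43 percentage points apart. At lines 6 to 11 the order turned over: at each of these 6 lines a slightly larger share of runs ended in HEK293T, such as 20.8% against 20.3% at line 11. The ratio of the shares, HEK293T over A549, accordingly rose to 1.09 at line 6, fell back to 1.05 at line 12 and climbed again to line 60.

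Of the 7 ranges of lines compared, lines 21 to 40 had the largest ratio between the lists in runs ending per line. Over lines 4 to 8, 25.3% of runs ended per line in HEK293T and 26.9% in A549, and over lines 9 to 20 the values were 18.8% and 19.6%. Over lines 21 to 40 they were 7.44% in HEK293T (7.29 to 7.59) and 15.3% in A549 (15.2 to 15.4), a ratio of A549 to HEK293T of 2.05 (2.01 to 2.096). At these rates the reads halved every 8.96 lines in HEK293T and every 4.18 lines in A549. The small ratios over lines 1 to 3 (1.03), 4 to 8 (1.06) and 9 to 20 (1.04) each turned below 1 when the limits of the range were moved by 2 or 3 lines (to 0.841, 0.971 and 0.997), so their direction depended on those limits. The ratio over lines 21 to 40 stayed between 1.91 and 2.38 under each alternative run for it.

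The shape within that middle range also differed. In A549 the share of runs ending per line lay between 13.8% and 17.5% from line 17 to line 38. Within these lines it fell slowly and unevenly, from 16.2% at line 17 (16.0 to 16.4) to 13.96% at line 30 (13.5 to 14.5). It then rose to its highest value there, 17.5% at line 33 (16.8 to 18.2). In HEK293T the share fell further, from 19.4% at line 12 to 15.2% at line 16 and 10.4% at line 20, and then lay between 6.01% and 8.35% from line 22 to line 40. Over lines 4 to 44 fewer runs ended per line in HEK293T at 35 of 41 lines, and lines 6 to 11 were the exceptions.

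**Figure D2:**
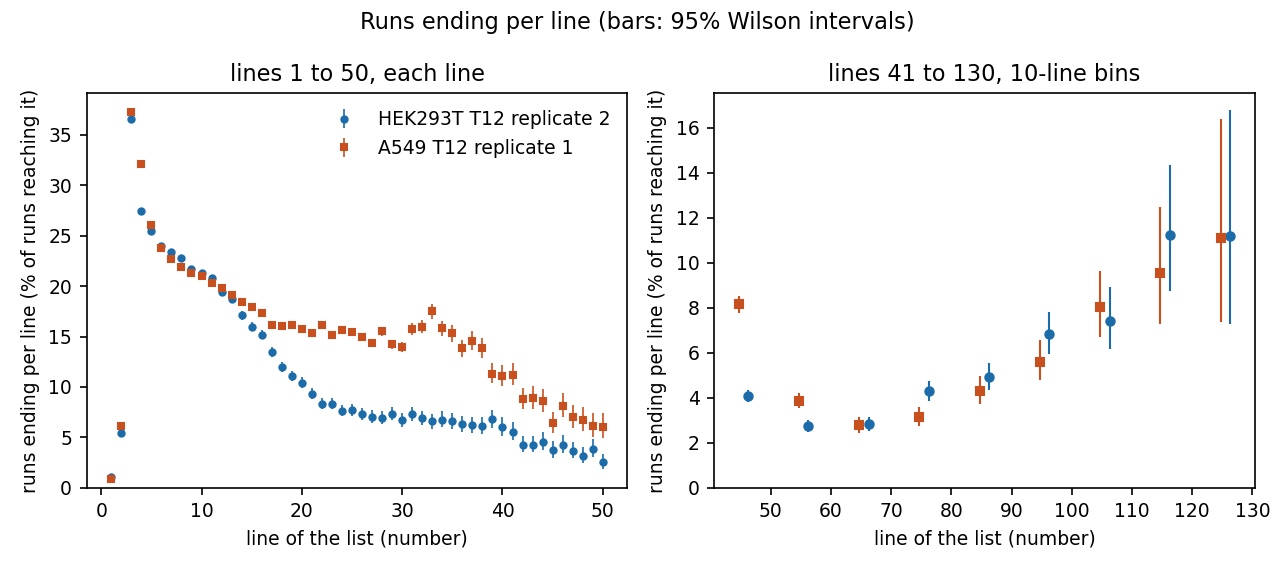
Runs ending per line as a percent of the runs that reach it (y axes) against the line number (x axes), for each line from 1 to 50 (left) and in 10-line bins from line 41 to line 130 (right), with 95% Wilson intervals as bars. A549 lies above HEK293T from line 12 to line 50 (15.3% against 7.44% per line over lines 21 to 40), and both fall to below 3% per line at lines 61 to 70 before rising again.

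The shares of reads that reached a line spread apart accordingly. At line 21, 1.66% of HEK293T reads (1.62 to 1.69) and 1.20% of A549 reads (1.19 to 1.20) were left, a ratio of 1.38 (1.36 to 1.41). At line 31 the shares were 0.745% and 0.234%, a ratio of 3.19 (3.09 to 3.29). At line 41 they were 0.378% and 0.0487%, a ratio of 7.77 (7.37 to 8.19). The ratio was 11.7 (10.9 to 12.5) at line 51 and reached 13.1 (12.02 to 14.2) at line 60, its highest value between lines 46 and 100. By the inferred conversion line 41 would be 50 T and line 60 would be 69 T.

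These long runs were rare but took a measurable part of the summed length. Runs past line 1 summed to a mean of 4.65 lines per read in HEK293T and 4.31 in A549, and the SD over reads was 5.63 and 4.06 lines. Lines 21 and beyond gave 5.77% of that sum in HEK293T and 1.95% in A549. Lines 41 and beyond gave 2.08% and 0.204%, and lines 71 and beyond 0.572% and 0.0551%. The difference in mean of -0.345 lines (A549 minus HEK293T, 95% counting interval -0.359 to -0.331) was -0.26 when runs were stopped at line 41, and -1.29 among reads that reached line 9.

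Counted as reads rather than shares, the long runs of both lists were nearly equal in number in spite of the difference at line 1. A549 had 9.57 times the reads of HEK293T at line 1, 9.05 times at line 13, 6.91 times at line 21, 3.0 times at line 31 and 1.23 times at line 41. Line 45 held 2104 HEK293T reads and 2115 A549 reads. From line 46 to line 93 HEK293T had more reads at each of the 48 lines, by up to 376 reads at line 55, and the ratio of A549 to HEK293T was lowest at line 60 (974 against 1329 reads, 0.733). From line 94 on the counts ran side by side: 298 and 291 reads at line 94, 200 and 192 at line 100, 95 and 88 at line 110, 28 and 30 at line 120, and 10 and 10 at line 130 (HEK293T first). The largest difference at any of the 40 lines from line 94 to the second-last was 12 reads.

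With equal numbers of reads, the ratio of shares in this range is the ratio of the line-1 reads. From line 94 to line 130 the share ratio, HEK293T over A549, was 7.36 to 10.7, a range that holds the 9.57 of line 1. The number of long runs therefore did not scale with the number of short runs between these libraries. The number of line-1 reads moved with this result, and its part in it was not tested. Sequencing depth is not known from the lists, and its part was not tested either. The lists hold counts without read names or sequences, so whether the same molecules or reads stand behind both tails was also not tested.

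**Figure D3:**
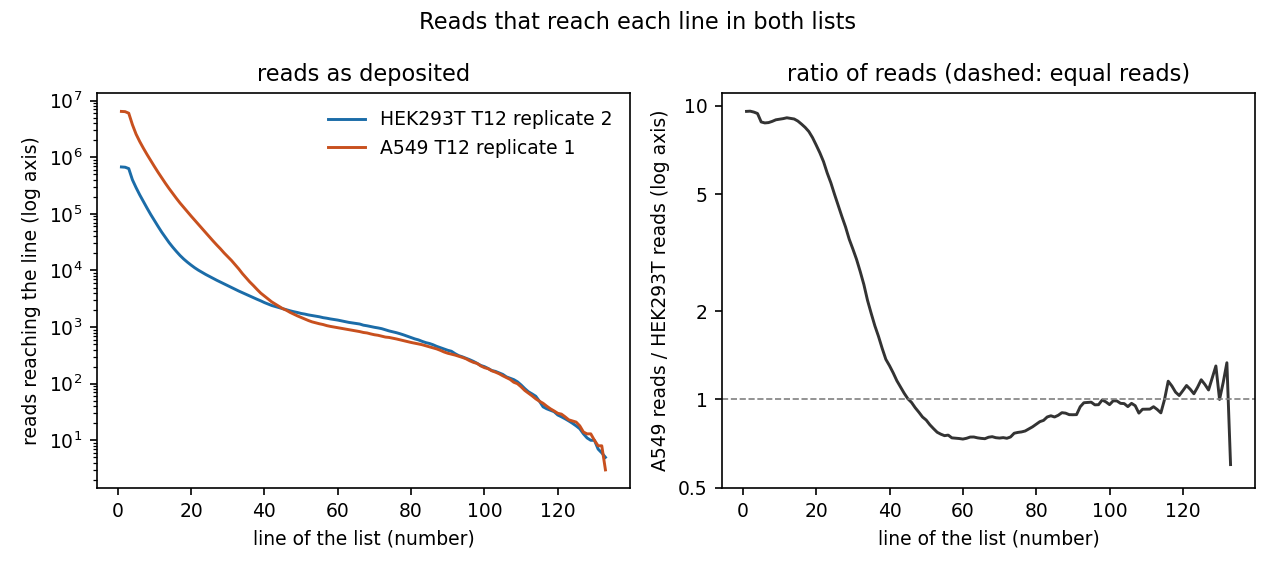
Reads that reach each line as deposited (left, y axis on a log scale) and the ratio of A549 to HEK293T reads (right, y axis on a log scale, dashed line at equal reads) against the line number (x axes). The ratio falls from 9.57 at line 1 to 0.733 at line 60 and lies between 0.898 and 1.30 from line 94 to line 130.

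The near-equal counts from line 94 on give tails of nearly the same shape. The values below restate those counts and are no separate agreement. Of the reads that reached line 94, 52.0% reached line 104 in HEK293T (46.4 to 57.6) and 51.5% in A549 (45.8 to 57.2). Line 114 was reached by 20.1% (16.0 to 25.1) and 18.6% (14.5 to 23.4), and line 124 by 6.71% (4.39 to 10.1) and 7.56% (5.05 to 11.2). The mean read went 11.8 lines past line 94 in both. Over the lines past 100, 8.91% of runs ended per line in HEK293T (7.76 to 10.2) and 9.01% in A549 (7.84 to 10.3), a ratio of A549 to HEK293T of 1.01 (0.832 to 1.23). A difference inside that interval was not detectable with these read counts.

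Between lines 46 and 93 the tails had different shapes. Of the 2026 HEK293T reads and 1979 A549 reads at line 46, 63.5% (61.4 to 65.6) and 47.95% (45.8 to 50.2) reached line 61, and 47.7% (45.5 to 49.9) and 36.2% (34.1 to 38.3) reached line 71. At line 94 the shares were 14.7% in each. The lists held close counts at line 46 and again at line 94 (298 and 291 reads), so these equal shares follow from the choice of lines. Between such end points, faster ending first in either list is balanced by faster ending later in the other. Here the A549 runs ended faster first. Over lines 41 to 70, 3.34% of runs ended per line in HEK293T and 5.86% in A549, a ratio of 1.75 (1.65 to 1.87). The gap shrank within that range (HEK293T first): 4.06% and 8.15% over lines 41 to 50, 2.73% and 3.86% over lines 51 to 60. Over lines 61 to 70 the values were close, 2.83% and 2.77%. Over lines 71 to 100 the order was opposite to that over lines 41 to 70, 4.92% in HEK293T (4.60 to 5.27) and 4.02% in A549 (3.69 to 4.36), a ratio of 0.816 (0.732 to 0.909).

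**Figure D4:**
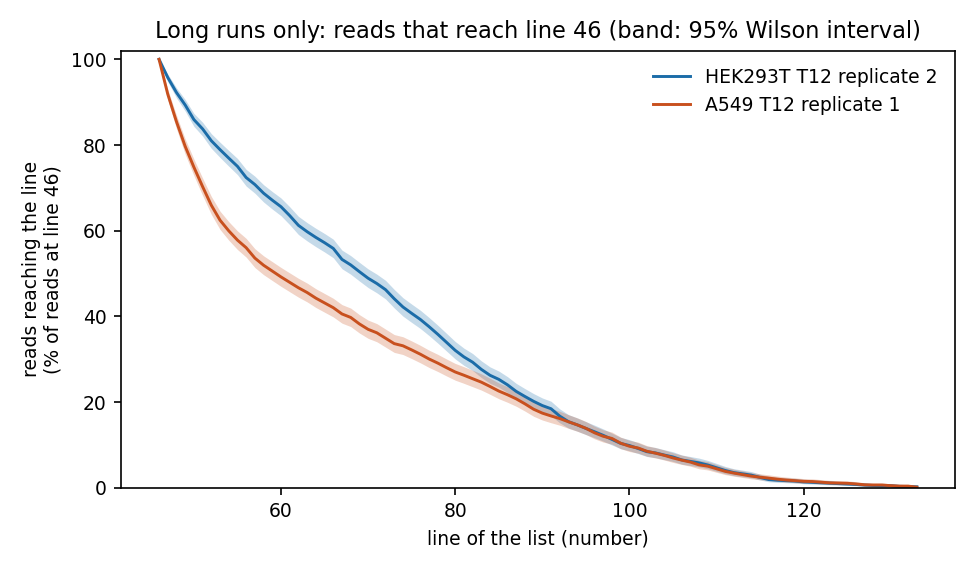
Reads that reach each line as a percent of the reads at line 46 (y axis) against the line number (x axis), with 95% Wilson intervals as bands. HEK293T lies above A549 at line 61 (63.5% against 47.95%), and the curves meet at line 94 (14.7% in each). The lists held close counts at both line 46 and line 94, so the meeting follows from the choice of line 46 as start.

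Each list thus had a slowest stretch followed by a faster end. The lowest share of runs ending per line over any 10 neighbouring lines was 2.56% in HEK293T, in the window that starts at line 56, and 2.64% in A549, in the window that starts at line 58. From there it rose to 4.91% and 4.31% over lines 81 to 90, 6.82% and 5.60% over lines 91 to 100, 7.42% and 8.05% from there to line 110, and 11.2% and 11.1% between lines 120 and 130 (HEK293T first). In that last stretch 19 and 21 runs ended. A run cannot be read beyond the end of a read, and the read length is not stated in the sources used here.

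The poly(T) lists hold no genes, so the identity of the cells cannot be checked in them. In the T12 libraries of the same lines that were deposited with gene counts (HEK293T replicate 1 and A549 replicate 2), all 6 A549 genes on a marker list (keratins KRT7, KRT8 and KRT18, AKR1B10, AKR1C1 and ALDH1A1) passed 2-fold with A549 the higher library, and all 6 HEK293T genes (NEFM, NEFL, LIN28B, AMOT, CKB and PAX2) with HEK293T the higher. The background is wide: 10145 genes had 20 reads or more in one library or both, and 60.2% of them passed 2-fold in either direction on the log2(CPM + 1) scale, 31% higher and 29.2% lower in A549. These too are 1 library per line, and the differences have no replicate check. The marker lists were chosen with earlier results of these data known, so their counts are no independent check of identity. The spans of KRT8 and KRT18 overlap each other, and NEFL and AMOT overlap 1 other gene each, so reads on these markers may be shared.

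Genes that make, bind and shorten poly(A) tails differed in both directions between those gene-count libraries. Of 28 genes listed, 27 matched a gene in the tables and 26 had enough reads, of which 8 passed 2-fold upward in A549 and 7 downward. The upward count rested on genes with few reads: with a minimum of 100 reads in place of 20, 1 gene was higher and 7 were lower, of 16 tested. Over all genes that minimum also left fewer higher than lower in A549, 1205 and 1680 of 4934. The minimum applies to the higher library, and the A549 library had fewer gene reads (1498188 against 3265699). The share at a minimum of 20 reads is close to the background, with a median log2 ratio of 0.30 against 0.02 over all genes. Among 6 poly(A)-binding proteins measured, 0 were higher and 1 was lower, and among 5 poly(A) polymerases 2 were higher and 1 was lower. Among 6 deadenylases 1 was higher and 2 were lower, among 7 deadenylase scaffolds and adaptors 3 were higher and 3 lower, and both uridylyl transferases were higher, on 29 A549 reads each.

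The largest ratios on the list came with few reads. TENT2, a cytoplasmic poly(A) polymerase (hg19 chromosome 5, 78908243 to 78982471, plus strand), was covered by 28 A549 reads and 3 HEK293T reads, a CPM ratio of 20.3 with a counting interval of 6.19 to 66.9. TOB1, an adaptor of the CCR4-NOT complex (chromosome 17, 48939584 to 48945339, minus strand), had 42 and 8 reads, a ratio of 11.4 (5.37 to 24.4). TUT7, a uridylyl transferase that marks short tails (chromosome 9, 88902648 to 88969402, minus strand), had 29 and 11 reads, a ratio of 5.75 (2.87 to 11.5).
The lowest ratios were better covered. CNOT1, the scaffold of CCR4-NOT (chromosome 16, 58553850 to 58663790, minus strand), had 189 reads in A549 and 1294 in HEK293T, 3.14-fold lower in A549 by CPM (2.70 to 3.66). PAN2, the catalytic subunit of PAN2-PAN3 (chromosome 12, 56710007 to 56727533, minus strand), had 43 and 280 reads, 2.99-fold lower (2.17 to 4.12). TOB2, a paralog of TOB1 (chromosome 22, 41829492 to 41843027, minus strand), had 51 and 264 reads, 2.37-fold lower (1.76 to 3.20). CNOT1 overlaps 3 other genes, and PAN2 and TOB1 overlap 1 each, so their reads are uncertain to that extent. These genes were measured in other libraries than the poly(T) runs, and their part in the run lengths was not tested.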

How the data were processed

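Poly(T) run lengths were taken from 2 lists of read counts, deposited by the authors as 1 column without a header. The name of each deposited file records the second read, cutadapt and trimming. The counting command and the run length of a line are not given in the sources used here. FastQC 0.11.8, cutadapt 2.10, Trimmomatic 0.39, HISAT2 2.2.1, SAMtools and the builds GRCh37 and hg19 are named, without roles, per the submitters' processing notes.

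Neighbouring lines were subtracted to give the runs that end at each line. The share of runs ending per line in a range is the runs ended divided by the runs at risk, summed over its lines. Shares have 95% Wilson intervals and ratios 95% log-normal counting intervals; a count of 0 was taken as up to 3 reads. The calculation was run on simulated lists with a constant share of runs ending within each range. Changes of that share within a range were not covered. Python 3.11.15 and scipy 1.17.1 were used. With 1 library per cell line no test was made.

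For the gene lists, read counts per RefSeq transcript, deposited by the authors, were used in the T12 gene-count libraries. Their FPM (a signal scaled to a library total) and FPKM columns, also deposited by the authors, were not used. Of 61177 transcript entries 60133 (98.3%) matched a RefSeq symbol, and the entry with most reads over the 7 gene-count libraries was kept per gene. Gene reads totalled 1498188 in A549 and 3265699 in HEK293T. A read counts for each gene it overlaps, and a use of strand is not stated. Ratios were taken on log2(CPM + 1) at a 2-fold limit for genes with 20 reads or more in one library or both; edgeR 4.0.16 gave TMM factors for an alternative. Genes named were the 3 highest and 3 lowest ratios of the poly(A) list past that limit. The libraries, lines and gene lists were chosen with earlier results of these data known. Gene body coverage was not used here.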

Additional observations from a re-analysis of the deposited data

How the results depend on the processing

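No paired analysis was possible because each cell line had 1 poly(T) list and the lists carry different replicate numbers, and for the same reason no replicate could be left out. HEK293T runs were longer than A549 runs in mean under each alternative: the difference (A549 minus HEK293T) was -0.508 lines for reads that reach line 4, -1.29 for reads that reach line 9, -0.26 with runs stopped at line 41 and -1.43 with each line read as a histogram count. The line-41 share ratio of 7.77 became 7.27 among reads that reach line 9 and 10.4 with the histogram reading, and was 3.19 at line 31 and 11.7 at line 51. The ratio of A549 to HEK293T in runs ending per line is given next for the ranges from lines 1 to 3 onward. With limits 3 lines up it was 1.05, 0.971 (below 1), 1.17, 2.19 and 1.51 in the first 5 ranges. With limits 2 lines down it was 0.841 (below 1), 1.05, 0.997 (below 1) and 1.91 in the first 4. With a least-squares slope it was 1.03, 1.02, 1.10, 2.14 and 1.47 in the first 5. With the histogram reading it was 1.08, 1.12, 1.56, 2.38, 1.07 and 0.918 in the first 6. The value of 0.841 is that of line 1 alone, and the limits behind 0.971 and 0.997 take in more of lines 6 to 11, where more runs ended per line in HEK293T. In the gene-count libraries 6105 genes differed at least 2-fold, and 2885 did with a minimum of 100 reads, where fewer genes were tested (4934). On the poly(A) list that minimum left 1 gene higher and 7 lower of 16 tested, beside 1205 higher and 1680 lower over all genes. TMM scaling moved the median log2 ratio of all genes from 0.02 to -0.20 and gave 7 higher and 8 lower on the list, and PAPOLG fell under the 2-fold limit there. Past line 120 both lists hold 30 reads or fewer per line, which limits the precision of the longest runs.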
